A study of Mus musculus with 5 samples.

Results

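The genes described here encode the enzymes that add methyl groups to lysines of the histones and those that remove them, together with the subunits shared by the complexes that methylate histone H3 at lysine 4. They were chosen by name. Every gene of the table whose symbol is Kmt, Kdm, Setd or Smyd followed by a number was taken. Kdm2b and Kdm5d, 2 symbols that the rule leaves out, were excepted. To these were added 18 further named enzymes and subunits. This gave 53 of the 21801 genes in the table. The RNA came from neuroepithelial cells (NECs) of the mouse, in 5 libraries that the labels place in 1 group as replicates 1 to 5. The labels call the cells neural progenitors, and the series text places them, purified, in the developing neocortex. Strain, genotype, embryonic age and mode of purification are not stated in the sources used here, and the labels name no treatment. Nothing says that each replicate was a separate animal, and p-values then cover only the spread between libraries, which may be technical.

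Methylation of a histone lysine marks chromatin without changing its charge, and its effect depends on the lysine. Methylated lysine 4 of histone H3 (H3K4) marks active promoters and enhancers, H3K36 and H3K79 the bodies of transcribed genes, and H3K9 and H3K27 silent chromatin. Most of the methyltransferases carry a SET domain and take the methyl group from S-adenosylmethionine, and most of the demethylases carry a JmjC domain that needs iron, oxygen and 2-oxoglutarate. In the developing brain these enzymes hold progenitor and neuronal genes in their active or silent state, and changes in several of the human genes cause disorders of neural development.

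Levels are in FPKM, by name read fragments scaled to 1 kilobase of transcript and to 1000000 mapped reads. How the read total behind the deposited values was defined is not stated. The unit divides by length, which need not make transcripts of very different length comparable. The cDNA was primed with poly-dT and amplified, and any effect of that on long transcripts was not tested. Judged from the steps between the lowest values, a level of 1 FPKM corresponded to 37.1 to 51.1 reads for a 2000-base transcript, depending on the library. Pearson's r of log2(FPKM + 1) across genes, which are not independent replicates, was 0.99 to 0.997 over the 10 pairs of libraries, and no pair was identical. Of 11 neural progenitor markers 10 lay above 1 FPKM and 1 was called neither way, among them Pax6 at 64.6 ± 7.64 FPKM (SD, n = 5). Markers of other cells were also present, with 8 of 12 mesenchyme and 6 of 8 surface ectoderm genes above the level, where 52.3% of all genes tested lay. Of 10 neuronal genes 6 lay above 1 FPKM, near that share, led by Tubb3 (61.6 ± 13.1 FPKM). The other 4, Elavl3, Dcx, Neurod1 and Rbfox3, lay below it, with means of 0.16 to 0.41 FPKM. Above 1 FPKM were also 1 of 5 endothelial, 1 of 4 neural crest and 0 of 6 blood and microglia genes. In such bulk samples fewer cells of a type and less RNA per cell cannot be told apart. Unless stated otherwise, a level below is a mean ± SD over the 5 libraries.

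Nearly all of the 53 genes were expressed. Tested against 1 FPKM with limma, at a Benjamini-Hochberg adjusted p under 0.05 over all 19706 genes tested, 50 lay above the level and 3 below, and 0 were left uncalled. Over all genes tested, 52.3% lay above the level and 41.4% below. The median of the gene means was 9.31 FPKM for the 53 genes and 1.79 FPKM for all genes tested. When genes averaging under 1 FPKM were set aside the medians were closer, 13.0 FPKM for 50 of the 53 genes and 11.7 FPKM for the whole table. Middle levels were the rule: 24 of the 53 had means of 1 to 10 FPKM and 24 had means of 10 to 100 FPKM, 45.3% in each class, against 26.0% and 22.3% of all genes tested. Only 2 of the 53 reached 100 FPKM, which was 3.77% against 7.48% of all genes tested.

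**Figure D1:**
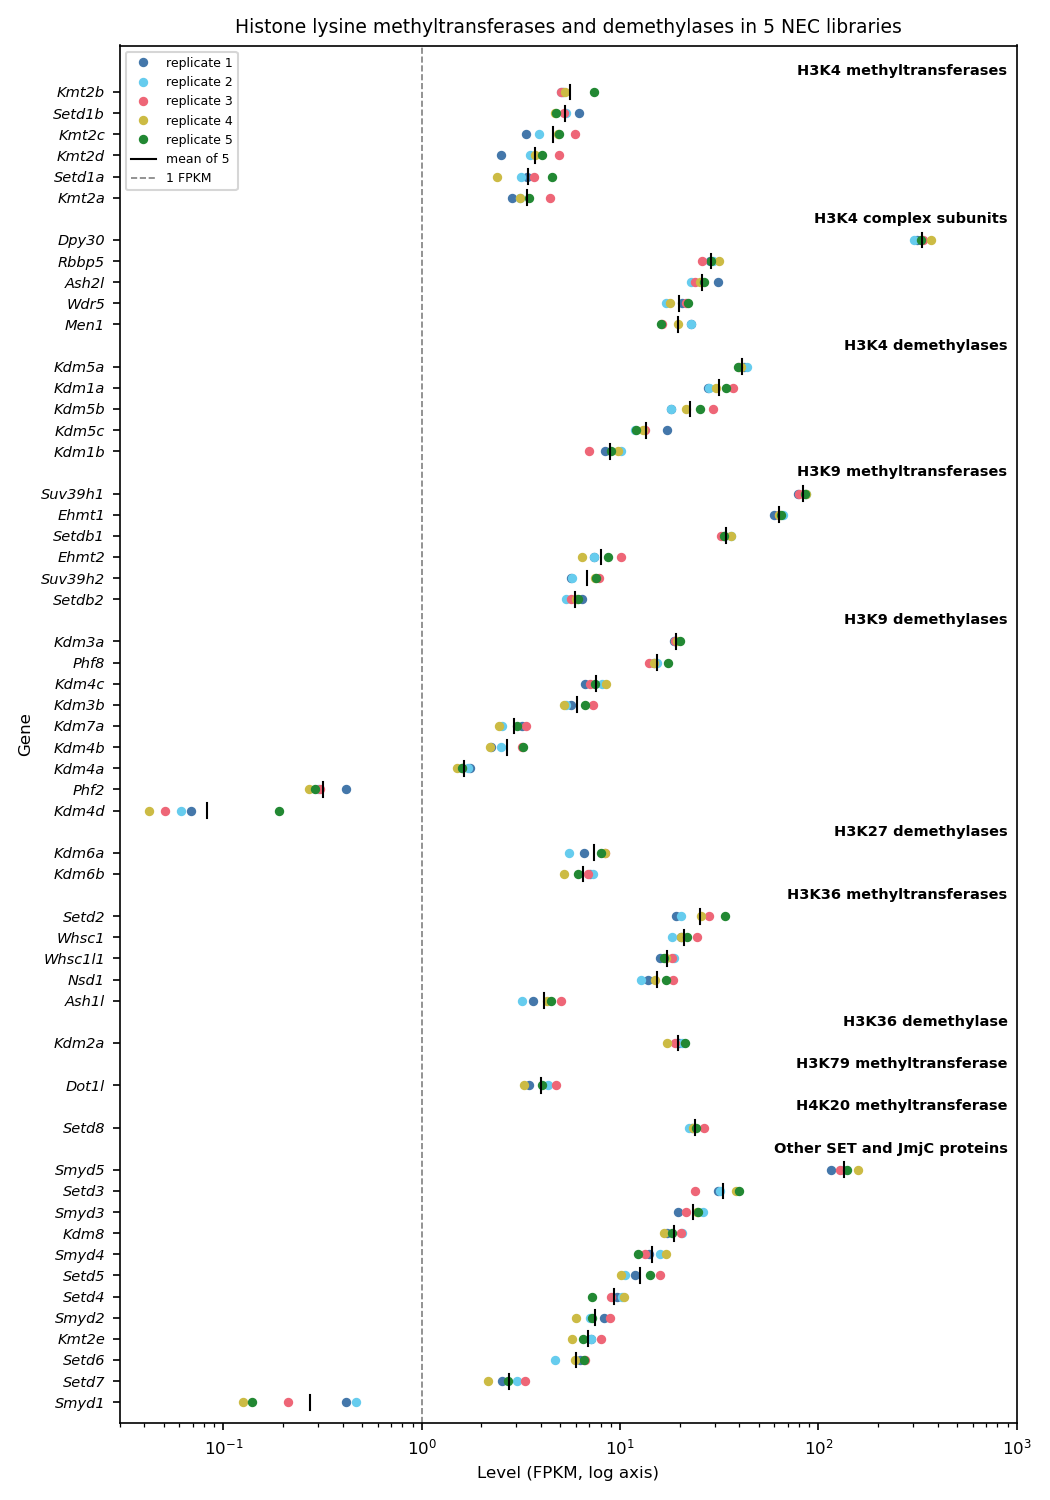
Level of each of the 53 genes in the 5 NEC libraries, by role, in FPKM on a log axis. Each point is 1 library, the black bar is the mean of 5 and the dashed line marks 1 FPKM. Phf2, Kdm4d and Smyd1 lie left of the line in every library, and the spread between libraries is small beside the distance between genes.

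The 5 highest genes were a complex subunit, 3 enzymes of histone H3 and a SET and MYND domain protein. Dpy30, a small subunit that helps the H3K4 methyltransferases to work (ENSMUSG00000024067, chromosome 17, 74299474 to 74323944 on mm10), had 316, 305, 339, 370 and 329 FPKM in replicates 1 to 5. Smyd5 had 116, 133, 128, 159 and 140 FPKM. Both were highest in replicate 4, and no library of Dpy30 came near one of Smyd5. Suv39h1, a methyltransferase of H3K9 in pericentric heterochromatin (chromosome X, 8061171 to 8074760), had 78.98, 86.4, 79.6, 87.0 and 85.8 FPKM. Ehmt1, which methylates H3K9 in euchromatin, had 60.0, 66.5, 63.7, 63.2 and 65.1 FPKM. Kdm5a, an H3K4 demethylase, had 42.4, 43.5, 39.8, 40.7 and 39.3 FPKM. These 5 genes kept the same order in every library. The log2 difference of Dpy30 from the level, on log2(FPKM + 1), was 7.37 with an SE of 0.05 (limma, adjusted p = 3.5e-12).

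The 6 genes listed as H3K4 methyltransferases were low among the 53, whose median was 9.31 FPKM. Setd7 and Prdm9, also methyltransferases of H3K4, are not among the 6 and are given below. All 6 catalytic genes lay above 1 FPKM, with means from 3.41 to 5.58 FPKM and a median of 4.16 FPKM. Kmt2a, which keeps developmental genes such as the Hox genes active, had 2.85, 3.14, 4.45, 3.14 and 3.47 FPKM in replicates 1 to 5. Its closest relative Kmt2b had 5.16, 5.07, 5.01, 5.27 and 7.40 FPKM. Kmt2a was the lower of these relatives in every library, and Kmt2b was set apart by replicate 5. Kmt2c and Kmt2d, which methylate H3K4 at enhancers, had 3.35, 3.90, 5.92, 4.84 and 4.91 FPKM and 2.50, 3.51, 4.90, 3.75 and 4.05 FPKM. Setd1a, which with Setd1b makes much of the trimethylated H3K4 of promoters, had 3.41, 3.18, 3.69, 2.39 and 4.55 FPKM. Setd1b had 6.21, 5.36, 5.23, 4.71 and 4.78 FPKM. By mean the order was Kmt2b, Setd1b, Kmt2c, Kmt2d, Setd1a and Kmt2a. Neighbours in that order overlapped in range, whereas every library of Kmt2b and Setd1b lay above every library of Setd1a and Kmt2a.

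The subunits that these enzymes share stood higher than any of them. Rbbp5 (28.8 ± 1.97 FPKM), Ash2l (26.0 ± 3.31 FPKM) and Wdr5 (19.8 ± 2.23 FPKM), which form the core on which the catalytic subunit works, and Men1 (19.5 ± 3.33 FPKM), the menin subunit of the Kmt2a and Kmt2b complexes, lay close together below Dpy30. In no library did the groups overlap: the subunits ranged from 16.01 to 370 FPKM and the catalytic genes from 2.39 to 7.40 FPKM. The subunits' transcripts are also shorter, 789 to 3385 bases, against 6487 to 19823 bases for the catalytic genes. Length itself went with level in these data, though not in every class of level. Spearman's rho of longest coding transcript with mean level was -0.37 over the 50 genes above the level. Over 10804 genes of the table that averaged at least 1 FPKM it was -0.24, with genes not being independent replicates. For means of 1 to 10 FPKM rho was -0.54 among the 50 genes and 0.04 over the table. For means of at least 10 FPKM it was -0.36 and -0.30. The part of length in the difference was not tested.

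The 5 demethylases of H3K4 exceeded the 6 listed methyltransferases. Kdm5a led them, followed by Kdm1a, the flavin-dependent demethylase of H3K4 that works in the CoREST complex, with 27.9, 28.04, 37.2, 30.5 and 34.3 FPKM in replicates 1 to 5. Kdm5b had 18.0, 18.1, 29.4, 21.5 and 25.5 FPKM, and Kdm5c, an X-linked relative, 17.2, 12.0, 13.4, 13.0 and 12.0 FPKM. Kdm1b, the second flavin-dependent enzyme, had 8.41, 10.1, 6.95, 9.82 and 9.03 FPKM. Kdm1a and Kdm5b were highest in replicate 3, where Kdm1b was lowest, and Kdm5c was highest in replicate 1. The 6 methyltransferases summed to 26.0 ± 2.90 FPKM and the 5 demethylases to 118 ± 5.95 FPKM. Setd7 and Prdm9 are in neither sum. The log2 ratio of the sums, methyltransferases over demethylases, was -2.18 ± 0.10 and negative in all 5 libraries. With list medians it was -2.41 ± 0.11. It is a description with no test, and sums of transcripts say nothing of enzyme activity. The methyltransferases have transcripts of 6487 to 19823 bases and the demethylases of 3028 to 10944 bases. The part of length in this balance was not tested.

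Kdm1a exceeded Kdm1b by 1.73 ± 0.34 on the log2(FPKM + 1) scale, Kdm5a exceeded Kdm5b by 0.87 ± 0.35 and Kdm5a exceeded Kdm5c by 1.55 ± 0.19, each in 5 of 5 libraries. Of the H3K4 methyltransferases, Kmt2a minus Kmt2b was -0.58 ± 0.28, Kmt2c minus Kmt2d 0.24 ± 0.08 and Setd1a minus Setd1b -0.51 ± 0.28, each again in 1 direction in 5 of 5. In all, 16 pairs of homologs were compared within libraries, with exact permutation of the signs of the 5 differences (two-sided), and 14 differed in the same direction in all 5 libraries. Each of the 14 had an exact p = 0.063, the smallest value that 5 libraries allow, and an adjusted p = 0.071, so no pair could pass 0.05. Setd1a shares 54.3% of its stretches of 40 bases with other annotated transcripts, mostly those of Gm49388, which overlaps it on the same strand, so its level is uncertain.

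**Figure D2:**
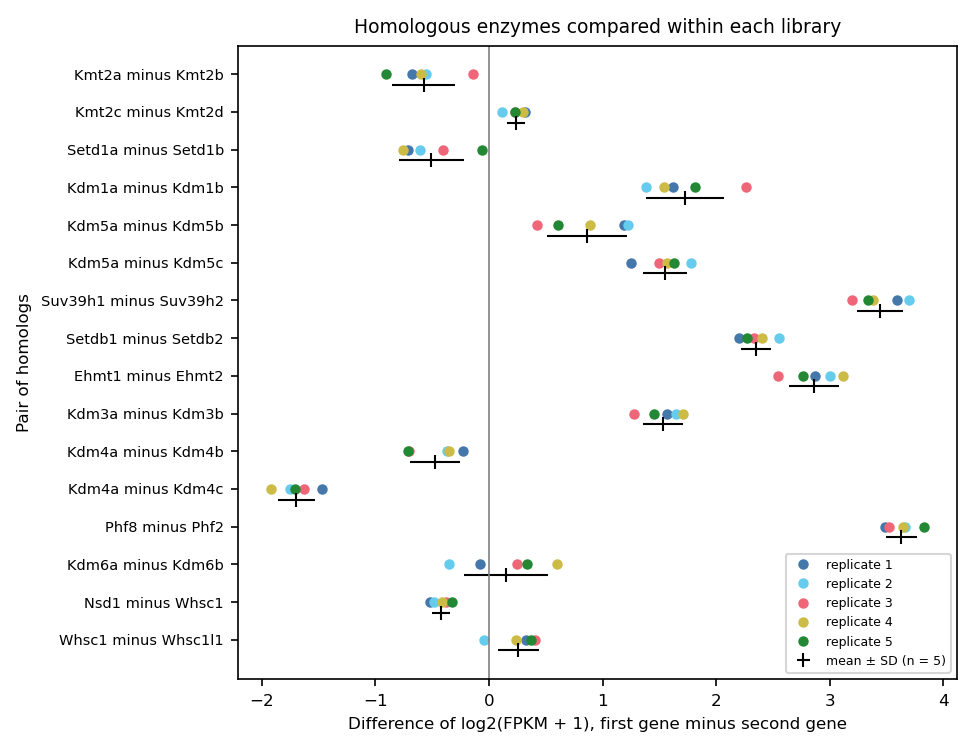
Differences between 16 pairs of homologs within each of the 5 libraries, first gene minus second, on the log2(FPKM + 1) scale. Points are libraries and black bars the mean ± SD (n = 5). The widest gaps are Phf8 minus Phf2 (3.63 ± 0.14) and Suv39h1 minus Suv39h2 (3.44 ± 0.20), and only Kdm6a minus Kdm6b and Whsc1 minus Whsc1l1 have points on both sides of 0.

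The methyltransferases of H3K9 came in unequal pairs, with 1 higher and 1 lower member each. All 6 lay above 1 FPKM. Suv39h2, the homolog of Suv39h1, had 5.64, 5.73, 7.80, 7.45 and 7.61 FPKM in replicates 1 to 5, so the lowest library of Suv39h1 was above the highest of Suv39h2, and the ratio of Suv39h1 to Suv39h2 averaged 12.4. Setdb1, which silences repeated elements with Trim28, had 33.3, 36.3, 32.4, 36.1 and 33.3 FPKM, and Setdb2 had 6.47, 5.37, 5.64, 6.01 and 6.12 FPKM. Ehmt2, which works as a dimer with Ehmt1, had 7.35, 7.43, 10.1, 6.41 and 8.74 FPKM. The dimer's genes thus did not have equal transcript levels: Ehmt1 exceeded Ehmt2 by 2.86 ± 0.22 on the log2(FPKM + 1) scale, and Suv39h1 exceeded Suv39h2 by 3.44 ± 0.20 and Setdb1 exceeded Setdb2 by 2.35 ± 0.14. Each held in all libraries, at the exact permutation p = 0.063 (adjusted 0.071) given above. An antisense gene, Gm14820, overlaps 14.6% of the exon bases of Suv39h1, and reads from it could not be told apart.

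Among the 9 demethylases of H3K9 7 lay above 1 FPKM and 2 below, with a median of 2.92 FPKM. Kdm3a, which removes methyl groups from H3K9, was the highest of them, with 18.8, 19.0, 19.0, 19.4 and 20.03 FPKM in replicates 1 to 5. It had the smallest SD of log2 values among the 50 genes above the level. Its homolog Kdm3b had 5.69, 5.36, 7.28, 5.23 and 6.68 FPKM, which Kdm3a exceeded by 1.53 ± 0.17 on the log2(FPKM + 1) scale in 5 of 5 libraries. The antisense gene Gm26538 overlaps 24.6% of the exon bases of Kdm3b, counted over all its transcripts, so reads from it could not be told apart. Phf8, an X-linked demethylase, had 14.9, 15.4, 13.98, 14.9 and 17.4 FPKM, whereas its relative Phf2 lay below the level, as described with the low genes. In the Kdm4 family, whose members act on trimethylated H3K9 and in part on H3K36, Kdm4c had 6.66, 8.16, 7.04, 8.50 and 7.46 FPKM. Kdm4b had 2.23, 2.52, 3.22, 2.22 and 3.26 FPKM, and Kdm4a 1.76, 1.72, 1.60, 1.51 and 1.59 FPKM. The 3 genes did not overlap in range, and Kdm4a minus Kdm4c was -1.70 ± 0.16 and Kdm4a minus Kdm4b -0.47 ± 0.22 on the log2 scale. Kdm4a was the gene nearest to 1 FPKM from above, with a log2 difference of 0.40 and an SE of 0.07 (limma, adjusted p = 0.00084), and lay below a level of 2 FPKM. Kdm7a was at 2.92 ± 0.40 FPKM.

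In sum the H3K9 methyltransferases exceeded the demethylases, the reverse of H3K4. The 6 methyltransferases added up to 202 ± 6.81 FPKM and the 9 demethylases to 55.8 ± 2.42 FPKM. The log2 ratio of the sums was 1.86 ± 0.06, positive in 5 of 5 libraries, and Suv39h1 and Ehmt1 made up most of the first sum. With list medians in place of sums the ratio was 2.85 ± 0.25. Here the methyltransferases have transcripts of 3034 to 5953 bases and the demethylases of 2695 to 9566 bases, and the part of length was again not tested. The demethylases of H3K27, Kdm6a and Kdm6b, which oppose the Polycomb methyltransferase, were close in level. Kdm6a had 6.62, 5.53, 8.38, 8.44 and 7.98 FPKM in replicates 1 to 5 and Kdm6b 7.07, 7.34, 6.89, 5.23 and 6.13 FPKM. The ranges overlapped and the order changed between libraries, with Kdm6a higher in 3 of 5 (exact permutation p = 0.5, adjusted 0.5), which does not show that the levels are equal.

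The 5 methyltransferases of H3K36 all lay above 1 FPKM. Setd2, which makes the trimethylated form along transcribed genes, had 19.3, 20.3, 28.3, 25.6 and 33.8 FPKM in replicates 1 to 5, the largest SD among the 50 genes above the level (0.32 on the log2 scale). Of the NSD family, which makes the dimethylated form, Whsc1 had 20.2, 18.2, 24.4, 20.3 and 21.8 FPKM, Whsc1l1 15.9, 18.8, 18.2, 17.1 and 16.6 FPKM and Nsd1 13.8, 12.7, 18.6, 15.0 and 17.1 FPKM. Nsd1 was the lower gene beside Whsc1 in every library, by -0.42 ± 0.08 on the log2 scale, whereas Whsc1 minus Whsc1l1 was 0.26 ± 0.18, with Whsc1 higher in 4 of 5 libraries (exact permutation p = 0.125, adjusted 0.133). Ash1l was lowest at 4.14 ± 0.72 FPKM. The 5 methyltransferases summed to 83.3 ± 10.6 FPKM, and Kdm2a, which demethylates H3K36 and was the 1 gene listed under that role, stood at 19.6 ± 1.57 FPKM. The log2 ratio of methyltransferases to Kdm2a was 2.08 ± 0.22 by sums and -0.17 ± 0.15 by medians, since 5 genes are set against 1. The Kdm4 genes, which act in part on H3K36, were counted with the H3K9 demethylases only. The selection rule leaves out Kdm2b, so the 5 against 1 reflects the lists and not all enzymes of this mark. Dot1l, which methylates H3K79 without a SET domain, was at 3.98 ± 0.62 FPKM, and Setd8, which makes the monomethylated lysine 20 of histone H4 during the cell cycle, at 23.9 ± 1.52 FPKM.

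The 12 remaining genes encode SET and JmjC proteins that act on other substrates, on several or on substrates less well known. 11 of them lay above 1 FPKM and 1 below. Setd3, which methylates a histidine of actin, had 31.1, 31.9, 23.8, 38.3 and 39.7 FPKM in replicates 1 to 5 and was lowest in replicate 3. It shares 24.5% of its stretches of 75 bases, the read length, and 43.4% of those of 40 bases with other transcripts, those of Gm14026 and other predicted genes foremost, so reads may have been split. Smyd3 (23.3 ± 2.62 FPKM), Kdm8 (18.6 ± 1.76 FPKM), Smyd4 (14.6 ± 1.97 FPKM) and Setd5 (12.6 ± 2.43 FPKM) followed. Setd4, Smyd2, Kmt2e, which has little activity of its own, and Setd6 had means of 6.03 to 9.31 FPKM. Setd7, which adds a single methyl group to H3K4 and to other proteins, was at 2.75 ± 0.45 FPKM. Smyd2 shares 33.4% of its stretches of 40 bases with the overlapping antisense gene Gm37422.

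The 3 genes below 1 FPKM were of different kinds. Phf2, a JmjC protein related to Phf8, had 0.415, 0.302, 0.306, 0.272 and 0.291 FPKM in replicates 1 to 5 and was highest in replicate 1. Its log2 difference from the level was -0.60 with an SE of 0.04 (limma, adjusted p = 8.5e-07). Its values stood for about 33.5 to 50.2 reads a library if its 5494-base transcript is taken, so the low level does not rest on single reads. Smyd1, a gene of heart and skeletal muscle, had 0.414, 0.468, 0.212, 0.125 and 0.140 FPKM, and replicates 1 and 2 lay above replicates 3 to 5 (log2 difference -0.66, limma, adjusted p = 2.6e-05). Kdm4d, which in the mouse is known mainly from the testis, had 0.0685, 0.0613, 0.0506, 0.0424 and 0.191 FPKM, which is about 2.60 to 10.99 reads a library (log2 difference -0.89, limma, adjusted p = 4.1e-08). Replicate 5 was the highest library of Kdm4d, and values of so few reads carry a large counting error. Kdm4d shares 6.83% of its stretches of 75 bases, the read length, and 13.4% of those of 40 bases with other transcripts, those of its copy Kdm4dl first. Phf8 minus Phf2, at 3.63 ± 0.14 on the log2 scale in 5 of 5 libraries, was the widest gap among the 16 pairs.

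The upstream sequences of these genes differ in their content of CpG, the dinucleotide whose cytosine can carry DNA methylation and which is dense at the promoters of most broadly expressed genes. They are shown for the muscle gene Smyd1, which lay below 1 FPKM, and for the highest 2 genes above it that have a single annotated start and no annotated exon in the window. Each is the 250 bases before the RefSeq start on GRCm38.p6, 5′ to 3′ on the strand of the gene, with CG in capitals, from chr6:71262282-71262531 on the minus strand, chr6:85431726-85431975 on the plus strand and chr4:136602724-136602973 on the minus strand.
Smyd1: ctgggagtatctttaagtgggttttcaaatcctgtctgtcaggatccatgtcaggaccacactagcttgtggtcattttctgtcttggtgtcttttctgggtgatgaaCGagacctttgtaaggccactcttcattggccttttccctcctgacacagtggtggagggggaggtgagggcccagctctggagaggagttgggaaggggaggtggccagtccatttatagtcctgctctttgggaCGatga
Smyd5: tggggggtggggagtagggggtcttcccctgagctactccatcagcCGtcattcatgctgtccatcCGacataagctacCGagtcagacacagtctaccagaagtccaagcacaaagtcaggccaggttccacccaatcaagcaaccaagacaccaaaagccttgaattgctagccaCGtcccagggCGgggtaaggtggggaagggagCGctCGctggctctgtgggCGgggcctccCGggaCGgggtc
Kdm1a: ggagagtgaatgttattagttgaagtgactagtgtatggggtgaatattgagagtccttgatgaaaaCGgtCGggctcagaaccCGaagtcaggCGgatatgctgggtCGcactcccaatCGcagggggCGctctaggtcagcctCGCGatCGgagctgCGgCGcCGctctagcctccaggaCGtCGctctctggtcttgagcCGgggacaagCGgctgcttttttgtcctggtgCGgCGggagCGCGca

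The motif searched was CG, which reads the same on both strands. It occurred 2 times in the window of Smyd1, 10 times in that of Smyd5 and 21 times in that of Kdm1a, and at least once in 92.1% of all 32851 windows of the RefSeq table. Of the 53 genes 39 had a window in that table and 31 had exactly 1. In the 28 of these that lay above 1 FPKM the median was 21.5 CpG in 250 bases, against 17 for 6341 genes of the whole table above 1 FPKM and 4 for 5251 below it. At least 10 CpG were found in 92.9% of the 28, against 80.4% of the 6341 genes. Low level and sparse CpG did not go together in every case: Phf2 had 50 CpG and Kdm4d 14, while Setd5 (12.6 ± 2.43 FPKM) had 0 and Kdm8 (18.6 ± 1.76 FPKM) had 7. These counts are a description with no test, and a window of this length holds only part of a promoter.

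Across libraries, the genes varied about as much as all genes that averaged at least 1 FPKM. The SD of log2(FPKM + 1) had a median of 0.17 over the 50 genes above the level and 0.16 over all those genes. For means of 1 to 10 FPKM the medians were 0.19 and 0.20, and for means of at least 10 FPKM 0.15 and 0.13. Among the 50 genes the SD ran from 0.03 for Kdm3a to 0.32 for Setd2, followed by Kdm5b (0.30) and Setd3 (0.28). The libraries did not contribute evenly: 19 of the 50 genes were highest in replicate 3, and 14 and 15 were lowest in replicates 1 and 4. The giant transcripts moved together. Kmt2d, Kmt2a and Kmt2c, with 19823, 16470 and 14967 bases the longest of the 50, were each lowest in replicate 1 and highest in replicate 3, and their sum was 8.69, 10.5, 15.3, 11.7 and 12.4 FPKM in replicates 1 to 5.

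Longer transcripts as a group were likewise highest in replicate 3. In the 25 genes with transcripts over 5944 bases the median deviation from the gene's own mean, on the log2(FPKM + 1) scale, was -0.08, -0.07, 0.17, -0.04 and 0.09 in replicates 1 to 5. In the 25 shorter genes it was -0.04, -0.02, -0.02, 0.02 and 0.04. Over the whole table the 1493 genes over that length had a median deviation of -0.08 in replicate 1 and 0.08 in replicate 3, and the 9311 shorter genes -0.06 and -0.01. Spearman's rho of length with deviation across the 50 genes was -0.29, -0.11, 0.37, -0.25 and 0.16 in replicates 1 to 5, and -0.06, -0.10, 0.12, -0.05 and 0.11 across 10804 genes, given as descriptions since the genes share their libraries. Among the cell marker lists 3 had their extremes in replicates 1 and 3. The 12 mesenchyme genes, none of them listed at 0 in all libraries, summed to 41.1, 67.9, 143, 117 and 119 FPKM, lowest in replicate 1 and highest in replicate 3. Lum alone made up 12.1 and 66.1 FPKM of these extremes, and all but Foxd1 were higher in replicate 3 than in replicate 1. The 11 neural progenitor genes summed to 302, 298, 255, 289 and 286 FPKM, highest in replicate 1 and lowest in replicate 3. They did not all move together. Vim (46.8 and 57.4 FPKM in replicates 1 and 3), Nes and Notch1 were higher in replicate 3 than in replicate 1, and the others were lower. The 4 neural crest genes summed to 8.85 FPKM in replicate 1, their lowest, and 20.1 FPKM in replicate 3, their highest. Tfap2b alone made up 8.24 and 18.7 FPKM of these sums, while Sox10 and Foxd3 were called below 1 FPKM and Tfap2a neither way. Other lists ran differently, with surface ectoderm (151 FPKM) and neuronal genes (132 FPKM) highest in replicate 2, and endothelial (11.9 FPKM) and blood and microglia genes (8.20 FPKM) highest in replicate 4. The part of the markers, and of the estimated depth, which was lowest in replicate 3, in the levels of the long genes was not tested. The counts of 50 genes above and 3 below 1 FPKM were the same without replicate 1 and without replicate 3.

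**Figure D3:**
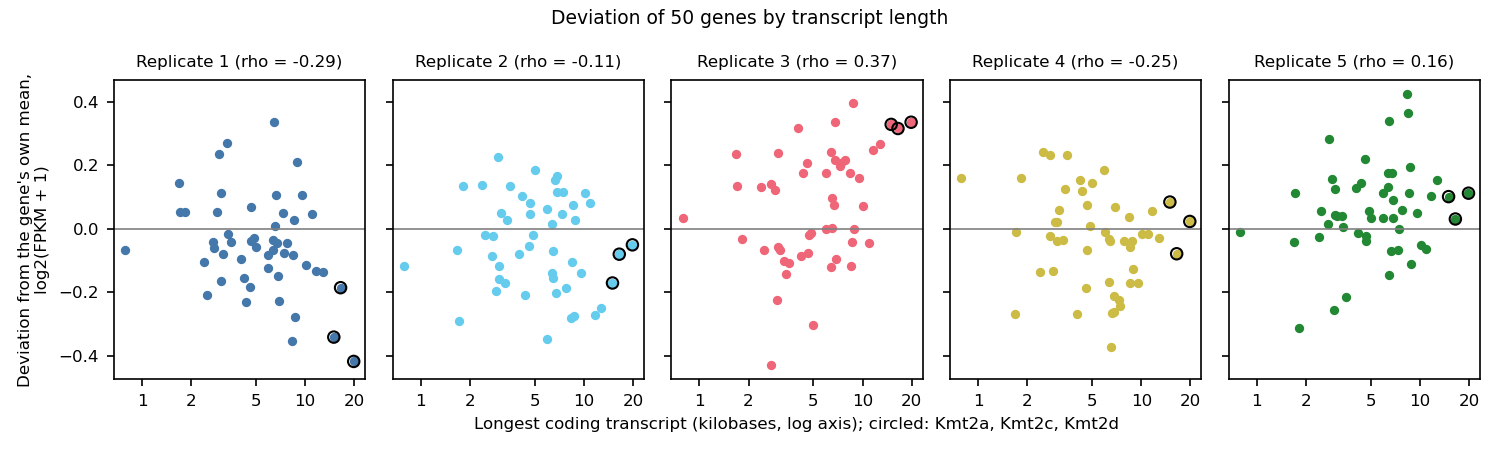
Deviation of 50 genes from their own 5-library mean, on the log2(FPKM + 1) scale, against the longest coding transcript in kilobases on a log axis, 1 panel per library with Spearman's rho. Kmt2a, Kmt2c and Kmt2d, circled, lie below 0 in replicate 1 and above 0.3 in replicate 3.

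Other genes of lysine and arginine methylation were counted in 9 lists. All 5 of the other SET enzymes lay above 1 FPKM, from Suv420h1 (4.64 ± 0.67 FPKM), a methyltransferase of histone H4 lysine 20, to Ezh2 (63.2 ± 4.37 FPKM), the Polycomb methyltransferase of H3K27. All 8 partners of the H3K4 complexes did so too, from Pagr1a (3.18 ± 0.25 FPKM) to Psip1 (124 ± 4.90 FPKM), and 10 of 11 CoREST partners of Kdm1a, from Gse1 below the level (0.20 ± 0.11 FPKM) to the deacetylase Hdac1 (304 ± 24.8 FPKM). The 11 partners and readers of H3K9 methylation were highest as a list, with a median of 71.6 FPKM. They ran from Fam208a (2.13 ± 0.27 FPKM) to Cbx3 (462 ± 40.3 FPKM), a protein that binds methylated H3K9, and all lay above the level. The share of all genes tested above 1 FPKM, 52.3%, stands behind each of these counts.

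Of 10 other JmjC proteins 9 lay above 1 FPKM and 1 below, from Hr (0.03 ± 0.03 FPKM), known from hair follicles, to Mina (38.8 ± 2.43 FPKM). Of 9 arginine methyltransferases 8 lay above and 1 below, with Prmt8, an enzyme of neurons, at 0.26 ± 0.08 FPKM and Prmt5 at 300 ± 34.2 FPKM. In the cycle of the methyl donor 6 of 7 genes lay above: Mat2a, which makes S-adenosylmethionine outside the liver, stood at 533 ± 29.6 FPKM, and the liver form Mat1a was listed at 0.0727 and 0.0127 FPKM in replicates 1 and 2 and at 0 in the others. Among 6 partners of Dot1l 4 lay above and 2 below, from Mllt6 (0.33 ± 0.06 FPKM) to Mllt10 (36.7 ± 3.08 FPKM). The PRDM family, whose members carry a domain related to SET, had 9 of 15 above, 5 below and 1 neither way. This was the lowest share above among the lists, and it was near that of all genes tested, with 52.3% above and 41.4% below. Mecom led the family at 22.9 ± 2.94 FPKM, and Prdm14 had 0.0925 FPKM in replicate 1, the other 4 libraries listing it at 0.

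**Figure D4:**
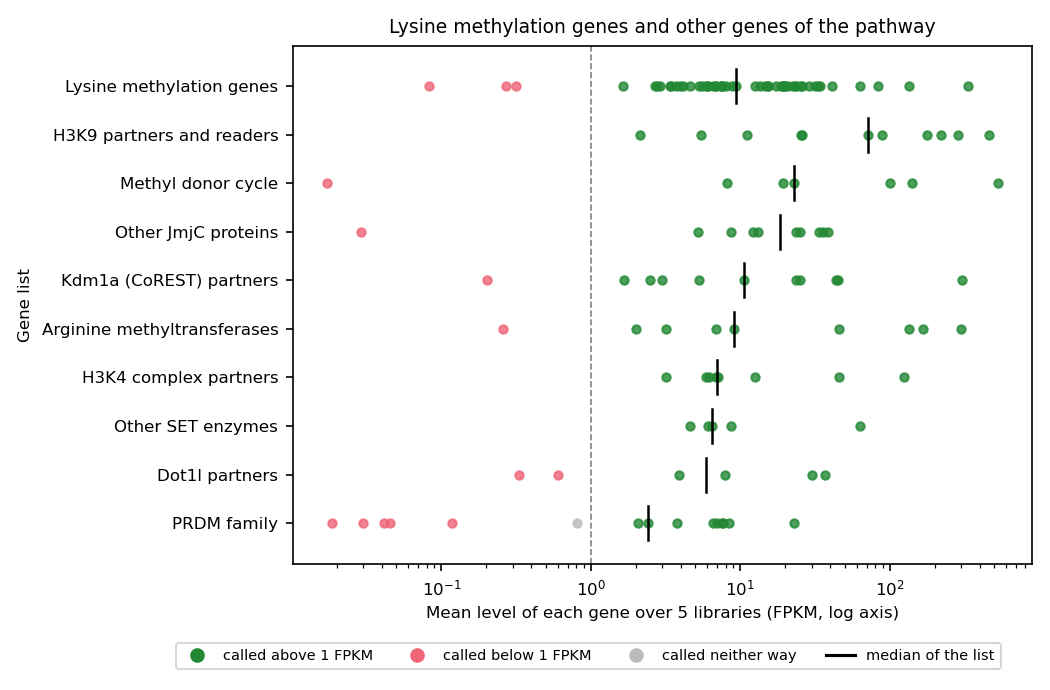
Mean level over 5 libraries of the 53 genes of lysine methylation and of 9 lists of other genes of the pathway, in FPKM on a log axis. Each point is 1 gene, coloured by its call against 1 FPKM, and black bars are list medians. The 53 genes have a median of 9.31 FPKM, and the lists run from 2.40 FPKM for the PRDM family to 71.6 FPKM for the partners and readers of H3K9 methylation.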

How the data were processed

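Total RNA of 5 NEC libraries was turned into full-length cDNA with a poly-dT primer and template switching, amplified and sequenced as single-end reads of 75 bases, per the labels' protocols. The authors deposited 1 table of FPKM, and per the submitters' processing notes CASAVA 1.8, cutadapt, TopHat2 2.0.11, Cuffdiff 2.2.1 and build mm10 were used, with no role or order. No source used here gives the annotation, the filters or whether strand was kept, and no molecular identifiers are described. A value of 0 can be a failed estimate.

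Each column was matched to its sample by replicate number. An intercept with a variance trend was fitted to log2(FPKM + 1) by limma 3.58.1 (R 4.3.3) in the 19706 genes above 0 in at least 1 library and tested two-sided against 1 FPKM, with Benjamini-Hochberg adjustment over all of them. The fit was also run on simulated independent normal values, which cannot check the p-values for libraries that may be technical replicates. Differences of low genes are understated on this scale. The 16 pairs were tested by exact sign flips over 32 patterns. Lengths, coordinates and overlaps came from GENCODE M21 (mm10), which held all 53 genes. Depth was read from single-transcript genes under 0.15 FPKM after taking 200 bases off the length. This put 20.6 to 28.4 M reads (1 M = 1000000) behind a library, so reads are estimates. The stated average is 35 M reads, above each of these estimates, and the gap was not examined. The genes and lists were chosen with earlier results of these data known. All 53 genes are given. Values per library are given for the 5 highest, those below 1 FPKM, both genes of each pair and the 3 with the largest SD, and for other lists the highest and lowest gene is named. Alternatives were other pseudocounts, scalings, filters, variance models and levels, and leaving out each library.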

Additional observations from a re-analysis of the deposited data

Results flagged for a closer look

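In 3 of the 53 genes 1 library stood farther from the other 4 than Dixon's test allows at 95%, and chance alone gives about 1 in 20. Kmt2b was at 7.40 FPKM in replicate 5, against 5.01 to 5.27 FPKM in the other libraries. Phf2 was at 0.415 FPKM in replicate 1, against 0.272 to 0.306 FPKM. Kdm4d was at 0.191 FPKM in replicate 5, against 0.0424 to 0.0685 FPKM, a level of few reads. None of the 16 pair differences was so placed.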

How the results depend on the processing

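The count of genes above 1 FPKM was 50 under each alternative but a level of 2 FPKM, where it was 49, and the count below was 3 except for 4 at that level and 2 where a mean of at least 0.1 FPKM was required, which drops Kdm4d. Of 794 values of single genes 793 kept their direction and their side of the threshold. The other was Kdm4a, at a log2 difference of -0.19 against 2 FPKM. All 144 values of pair differences kept their direction, Kdm6a minus Kdm6b running from 0.04 to 0.27 with 1 library left out. With list medians in place of sums, the log2 ratio of methyltransferases to demethylases was -2.41 for H3K4 and 2.85 for H3K9, and turned to -0.17 for H3K36, where the median ignores that there are 5 enzymes on one side and 1 on the other. No paired analysis was possible because the series has 1 group, so no other group shares its replicate numbers, and pairing was used only between homologs within a library. Depth limits Kdm4d most, at about 2.60 to 10.99 reads a library.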

Other observations

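In the PRDM family 2 further genes, chosen after their values were seen, were expressed. Prdm9, a methyltransferase of H3K4 and H3K36 known for placing recombination in meiosis, had 3.07, 1.64, 1.57, 2.40 and 1.73 FPKM in replicates 1 to 5 and was called above 1 FPKM (log2 difference 0.60, limma adjusted p = 0.0017). Prdm11 had 9.73, 3.08, 1.74, 2.39 and 2.07 FPKM, highest in replicate 1.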
